A study of Mus musculus with 33 samples.

Results

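Transcripts of the Fanconi anaemia and homologous recombination repair genes were followed through blood cell formation in mouse bone marrow. The set held 35 genes chosen by name, out of 56748 gene IDs in the count table. Each of the 35 matched 1 ID, and all 35 were among the 20464 genes that passed the filter on low counts. By role they were 8 subunits of the Fanconi core complex (the anchor FANCM included), the pair Fancd2 and Fanci, 3 genes of the nucleases that cut at crosslinks, 5 BRCA proteins and partners, 6 other recombination genes (Rad51c, Rad51d, Xrcc2, Xrcc3, Rad52 and Rad54l), 5 checkpoint kinase genes, and 6 genes of end resection and helicase activity.

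Interstrand crosslinks join both strands of the DNA and block the replication fork. The Fanconi core complex is a ubiquitin ligase, in which FANCL is the catalytic subunit, and it marks the clamp formed by FANCD2 and FANCI. Nucleases held on the scaffold SLX4 then unhook the crosslink. The resulting break is resected, and BRCA1 acts with BARD1, PALB2 and BRCA2 so that the lost sequence is copied from the sister chromatid. Homologous recombination therefore works mainly in cells that have replicated their DNA. Inherited loss of the pathway causes bone marrow failure, and blood stem cells are among the cells it depletes.

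Polyadenylated RNA was sequenced from 11 populations with 3 libraries each. The stem and early progenitor populations were LT-HSC and ST-HSC (stem cells of long and of short term) and MPP (multipotent progenitors). The committed progenitors were CMP (common myeloid), GMP (granulocyte-macrophage), MEP (megakaryocyte/erythroid) and CLP (read here as common lymphoid, since the label gives the letters alone). The mature populations were CD3e T cells, CD11b+ cells and B220+ cells, each labelled by its surface marker. The remaining population was BM, read here as bone marrow, whose label names no marker. Lineage-positive cells were removed with magnetic beads before the stem and progenitor sorts, whereas mature cells were stained and sorted directly. The series asks how epigenetic regulation acts in stem cell fate. The sources used here give no strain, age, sex, treatment or sort gate, nor do they say whether the 3 libraries of a population came from separate mice. If they did not, the p-values below measure technical spread alone.

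Library totals ran from 11997186 to 32022325 counts. Levels are in CPM, the counts of a library scaled to a common total after trimmed-mean (TMM) normalization. A gene was called higher or lower where edgeR's quasi-likelihood test gave an adjusted p below 0.05 and the estimated fold was 2 or more. The 3 libraries of a population lay close together, with a median SD of 4.18% of the mean over the 35 genes and 11 populations, so far smaller changes than 2-fold passed the p alone. Over the 33 pairs of libraries of the same population, the chi-square of their counts ran from 1.15 to 3.73 per gene, where counting noise alone gives 1. The lowest count of any of the 35 genes in any library was 5, for Fancf, whose levels are the least precise. Marker genes went with some labels and against others. T lineage markers summed to 2310 to 2350 CPM in CD3e T cells, where plasma cell markers summed to 16900 to 17000 CPM and neutrophil markers to 12500 to 12600 CPM. Lymphoid progenitor markers summed to 525 to 546 CPM in CLP, to 606 to 621 CPM in MPP and to 3240 to 3270 CPM in CMP. CLP also held basophil and eosinophil markers at 8390 to 8800 CPM and stromal markers at 1900 to 2000 CPM. In MPP the markers of granulocyte-monocyte progenitors summed to 37700 to 38400 CPM, the basophil and eosinophil markers to 8400 to 8670 CPM and the plasma cell markers to 12800 to 13200 CPM. LT-HSC held stromal markers at 3030 to 3050 CPM. Megakaryocyte markers were lower in MEP (39.7 to 43.3 CPM) than in LT-HSC (1110 to 1120 CPM). Erythroid markers were higher in MEP (11800 to 12200 CPM) than in LT-HSC (422 to 443 CPM). What part these other cells had in the repair gene levels was not tested, and in bulk samples fewer cells of a type cannot be told apart from less RNA per cell.

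The promoters of the genes that varied most and least across the 11 populations are shown first, since the results below turn on these genes. Among the 28 genes with an entry in the RefSeq promoter table (build GRCm38.p6, 300 bases from 250 before to 50 after the start), Bard1, Fancf, Atm and Brca2 had the largest range of population means, and Ercc4 and Fancg the smallest. Capitals mark matches to the E2F motifs TTTCCCGC, TTTCGCGC, TTTGGCGC and TTTGCCGC or to the cell cycle homology region (CHR) motif TTTGAA, searched on both strands, where no E2F match overlapped a CHR match.
Bard1, chr1:71102923-71103222, minus strand: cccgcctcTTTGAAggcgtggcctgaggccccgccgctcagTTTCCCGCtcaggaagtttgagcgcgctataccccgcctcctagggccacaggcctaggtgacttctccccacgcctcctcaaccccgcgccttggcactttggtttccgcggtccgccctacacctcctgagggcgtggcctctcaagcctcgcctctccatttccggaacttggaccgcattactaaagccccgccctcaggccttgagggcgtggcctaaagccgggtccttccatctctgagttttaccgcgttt
Brca2, chr5:150522371-150522670, plus strand: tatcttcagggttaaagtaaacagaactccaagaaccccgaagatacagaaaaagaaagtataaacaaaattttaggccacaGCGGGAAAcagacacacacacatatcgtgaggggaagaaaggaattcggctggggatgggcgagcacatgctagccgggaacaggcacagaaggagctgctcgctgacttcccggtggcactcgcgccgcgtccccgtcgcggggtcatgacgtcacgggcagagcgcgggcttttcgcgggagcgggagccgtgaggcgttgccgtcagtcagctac
Fancf, chr7:51862218-51862517, minus strand: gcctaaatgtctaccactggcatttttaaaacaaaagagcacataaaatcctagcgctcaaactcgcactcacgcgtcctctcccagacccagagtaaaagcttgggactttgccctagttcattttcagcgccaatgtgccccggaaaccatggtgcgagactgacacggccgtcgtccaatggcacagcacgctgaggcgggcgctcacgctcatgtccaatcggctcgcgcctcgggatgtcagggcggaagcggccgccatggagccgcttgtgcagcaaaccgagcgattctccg
Atm, chr9:53536622-53536921, minus strand: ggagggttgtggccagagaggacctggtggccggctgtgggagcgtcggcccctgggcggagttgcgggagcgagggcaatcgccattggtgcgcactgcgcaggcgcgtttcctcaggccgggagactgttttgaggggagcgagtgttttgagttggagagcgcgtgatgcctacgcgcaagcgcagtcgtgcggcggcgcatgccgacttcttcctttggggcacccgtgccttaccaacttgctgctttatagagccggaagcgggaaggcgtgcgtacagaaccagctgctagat
Fancg, chr4:43010252-43010551, minus strand: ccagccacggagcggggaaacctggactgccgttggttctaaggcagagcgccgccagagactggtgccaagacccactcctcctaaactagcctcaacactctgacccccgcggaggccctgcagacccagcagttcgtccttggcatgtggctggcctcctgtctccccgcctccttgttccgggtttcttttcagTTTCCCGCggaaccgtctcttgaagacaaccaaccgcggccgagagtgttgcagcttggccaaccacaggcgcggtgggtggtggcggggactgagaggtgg
Ercc4, chr16:13109486-13109785, plus strand: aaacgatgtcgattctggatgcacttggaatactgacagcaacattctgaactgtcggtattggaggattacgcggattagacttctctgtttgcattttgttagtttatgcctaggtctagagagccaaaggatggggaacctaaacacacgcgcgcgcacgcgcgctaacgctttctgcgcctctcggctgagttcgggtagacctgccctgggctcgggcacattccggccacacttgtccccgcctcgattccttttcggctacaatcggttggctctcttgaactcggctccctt

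The Bard1 window held the CHR motif at -242 and TTTCCCGC at -209 from the start, both on the gene's strand. Brca2 held TTTCCCGC on the opposite strand (printed as GCGGGAAA), starting at -168. The least variable gene with a match was Fancg, with TTTCCCGC at -52. No match was found in the windows of Fancf, Atm and Ercc4, so matches occurred among both the most and the least variable genes. Over all 30 entries of the 28 genes, 6 held an E2F motif (20.0%), against 2.26% of the 32851 entries in the table, and 1 held the CHR motif (3.33%), against 17.9%. The 6 entries belonged to Bard1, Brca2, Chek2, Fancg and Rad51c. These shares are a description of letters in a window and not of binding.

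The repair genes were highest in CLP and MEP and lowest in CD3e T cells. Of the 35 genes, 15 had their highest mean in CLP, 12 in MEP, 4 in GMP, 2 in CD11b+ cells (Fanca and Fancg), 1 in CMP (Rbbp8) and 1 in B220+ cells (Rad51c). The lowest mean fell in CD3e T cells for 15, in CD11b+ cells for 8, in GMP for 4, in BM for 3, in CLP and MEP for 2 each and in B220+ cells for 1. Over all genes, 19.1% had their highest mean in CLP, 14.7% in MEP, and 6.2% their lowest in CD3e T cells. The levels of the 35 genes summed to 1610 CPM in CLP, 1350 CPM in MEP, 1060 CPM in CMP and 545 CPM in CD3e T cells. The stem cell populations were in between, at 830 CPM in LT-HSC and 808 CPM in ST-HSC.

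**Figure D1:**
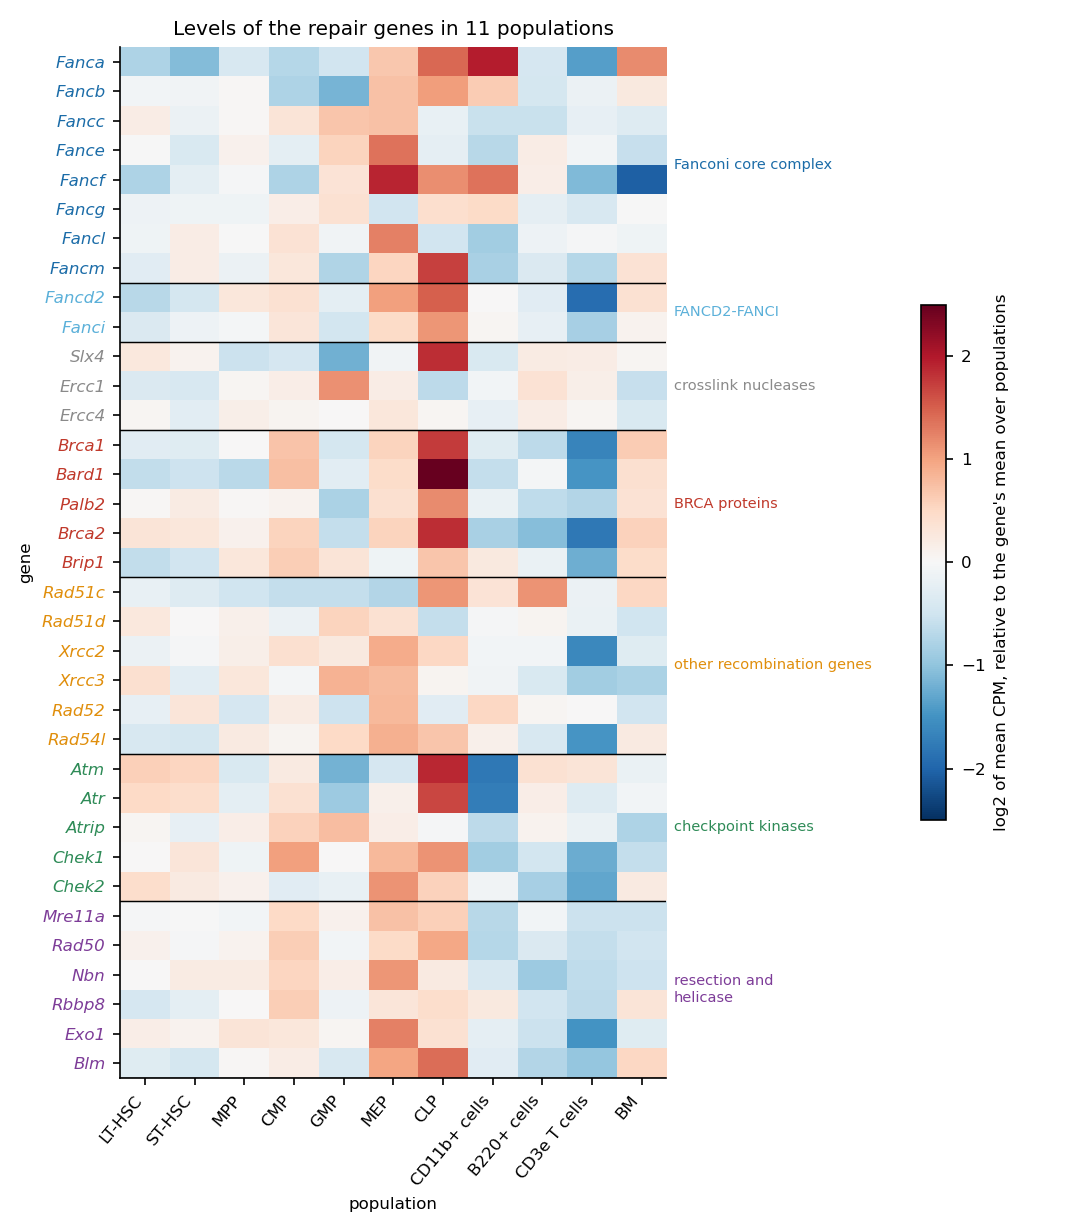
Mean level of each of the 35 repair genes (rows, by role) in each of 11 populations (columns), as log2 CPM relative to the gene's own mean over populations. The column of CLP is the darkest red for 15 genes, and CD3e T cells hold the lowest mean of 15. On this TMM scale Ercc4 hardly varies.

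The leading place of CLP depended on how gene length and base composition were treated. The longest transcript of the 15 genes that peaked in CLP had a median of 5660 bases, against 3210 bases for the 12 that peaked in MEP and 2980 bases for the 4 that peaked in GMP. When the dependence of each library's counts on base composition (GC) and transcript length was removed (below, the GC and length trend), 24 genes peaked in MEP, 6 in CLP and 3 in GMP, and 21 kept their highest population. With library size alone as the scale, 21 genes peaked in CLP and 1 in MEP, 6 in LT-HSC, 5 in CMP and 2 in ST-HSC. CD3e T cells held the lowest mean of 17 genes without the trend. On the scale of library size alone they held that of 9 genes, after GMP with 10, and CD11b+ cells held that of 8 and BM of 7. Whether the trend is technical or belongs to the cells was not tested.

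The range between the highest and lowest population mean had a median of 4.37-fold over the 35 genes, against 10.3-fold over the 16303 genes for which it was computed. Bard1 (16.3-fold), Fancf (15.3-fold), Atm (12.6-fold), Brca2 (12.5-fold), Brca1 (10.7-fold), Fancd2 and Atr (10.6-fold each) and Fanca (10.1-fold) had the widest ranges. The range of Fancf is imprecise, since its lowest mean, 0.557 CPM in BM, rested on counts of 7, 7 and 5. Its next lowest mean was 1.07 CPM in CD3e T cells. The narrowest were Ercc4 (1.58-fold), Fancg (1.93-fold) and Rad51d (2.23-fold). With library size alone, 28 of the 35 ranges moved by more than the spread between replicates.

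Bard1 encodes the partner that BRCA1 needs to be stable and to act as a ubiquitin ligase. It stood at 57.4, 55.5 and 58.5 CPM in CLP, and its next highest values were 15.2, 16.6 and 16.9 CPM in CMP. In CD3e T cells it had 3.29, 3.47 and 3.73 CPM. No CLP library came near a library of any other population.

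Ercc4 encodes XPF, the catalytic subunit of the nuclease that ERCC1 completes. Its values were 33.8, 31.9 and 34.7 CPM in MEP, at the top of its range, and 20.7, 19.9 and 22.8 CPM in BM, at the bottom. On the TMM scale its partner Ercc1 did not share this even profile. Ercc1 had 44.5, 43.4 and 44.4 CPM in GMP, where it was highest, and 12.5, 12.3 and 13 CPM in CLP, where it was lowest. The contrast depended on the scale, since without the GC and length trend Ercc4 ranged 3.03-fold and Ercc1 1.93-fold. With library size alone the ranges were 3.02-fold for Ercc4 and 3.07-fold for Ercc1. Fancg, a core complex subunit, had 39.4, 38.7 and 39.4 CPM in CD11b+ cells and 21.7, 19.6 and 19.6 CPM in MEP.

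**Figure D2:**
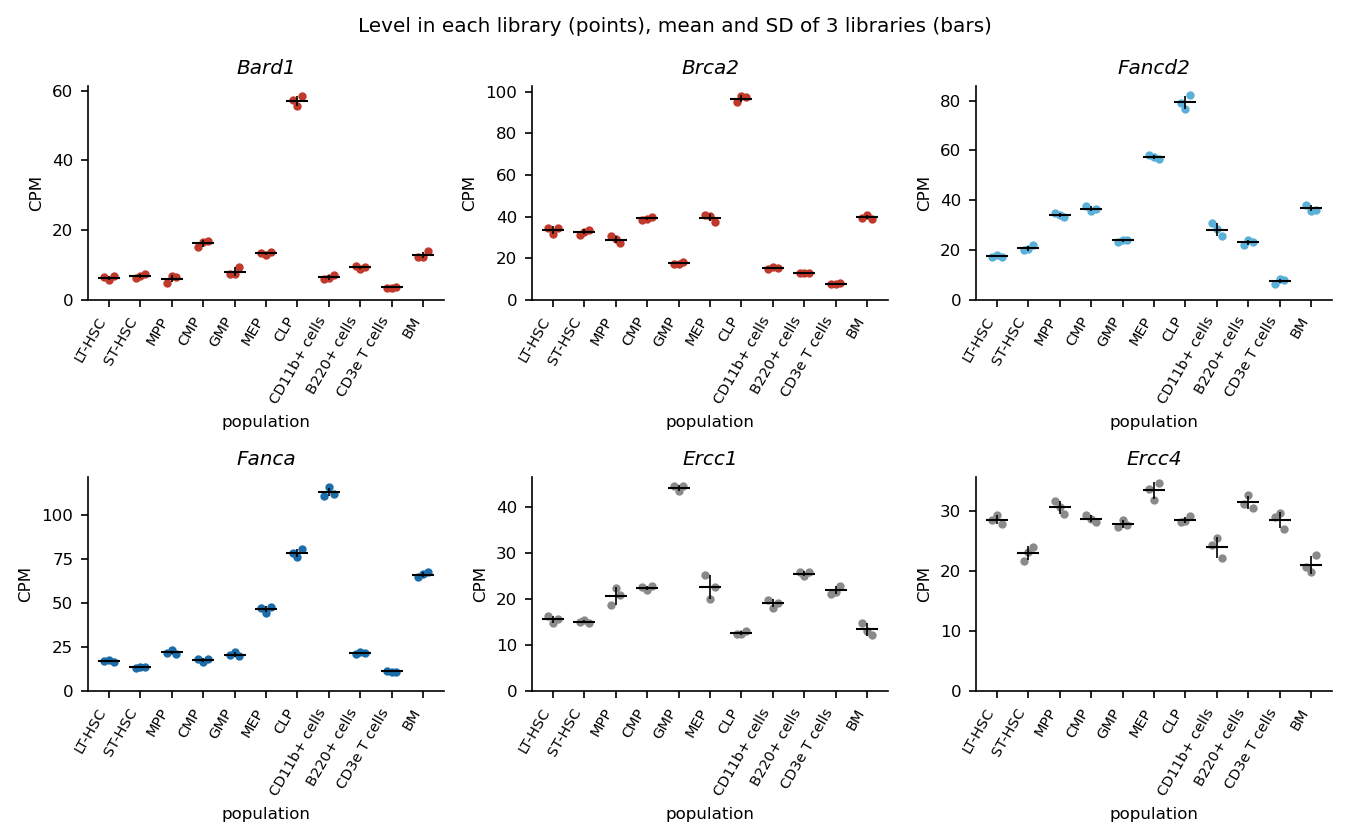
CPM of 6 genes in each of the 33 libraries (points), with the mean and SD of 3 libraries (bars), by population. Bard1, Brca2 and Fancd2 are highest in CLP and lowest in CD3e T cells. Fanca is highest in CD11b+ cells and Ercc1 in GMP, and on this TMM scale Ercc4 stays within 1.58-fold.

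Per kilobase of annotated exon, Nbn was the most abundant of the 35 genes at the median population, with 14.2 CPM per kb, followed by Chek2 with 10.3, Rad51d with 8.67 and Rad50 with 8.59 CPM per kb. Nbn and Rad50 encode 2 of the 3 parts of the MRN complex, which senses broken ends, and the third, Mre11a, stood at 6.87 CPM per kb. The lowest were Rad51c (0.792 CPM per kb), Atr (0.99 CPM per kb), Fancm (1.15 CPM per kb) and Fancf (1.33 CPM per kb). The length is the union of all annotated exons, which lowers the value of genes with long alternative transcripts such as Atr.

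In median, rank correlation with proliferation genes across populations was higher for the repair genes than for all genes. It was computed on the TMM scale alone. Spearman's rank correlation between a gene's population means and the mean of a 20-gene DNA replication list had a median of 0.5 over the 35 genes, against -0.136 over all genes, with 11 populations as points. The highest values were those of Rad54l (0.89), Xrcc2 (0.81) and Fancd2 (0.77), and the lowest those of Slx4 (-0.57), Atm (-0.51) and Rad51c (-0.48). With a 20-gene mitosis list the median was 0.34, against -0.041 over all genes, led by Fanca (0.93), Rad54l (0.9) and Fancd2 (0.89). The points share libraries and scaling, and the values are descriptive.

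Comparison of ST-HSC with LT-HSC addressed the first step of the hierarchy. No repair gene was called in either direction by edgeR or by DESeq2, against 9.0% of all genes called higher and 11.6% called lower. At an unadjusted p below 0.05 and any fold, 12 of the 35 were higher (30.8% of all genes) and 11 lower (35%). The median log2 fold change was -0.04, against -0.01 over all genes. The most changed was Xrcc3, a gene of homologous recombination, at 17.3, 18.4 and 18.6 CPM in ST-HSC against 27.5, 30.9 and 27.3 CPM in LT-HSC. The libraries did not overlap, and the difference was 1.56-fold (log2 fold change -0.64 ± 0.0512 SE, edgeR adjusted p = 3.6e-27). None of the 45 other pathway genes, 20 replication genes, 20 mitosis genes or 10 end joining genes was called. Stromal markers summed to 157 to 159 CPM in ST-HSC and 3030 to 3050 CPM in LT-HSC, and megakaryocyte markers to 44.7 to 45.7 CPM in ST-HSC and 1110 to 1120 CPM in LT-HSC.

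MPP against ST-HSC likewise gave no call by edgeR among the 35 genes, against 14.8% of all genes called higher and 21.5% lower. DESeq2 called 0 higher and 1 lower, against 13.2% and 22.4% of all genes. At an unadjusted p below 0.05, 17 were higher (34.5% of all genes) and 10 lower (40.8%), and the median log2 fold change was 0.11, against -0.11 over all genes. The gene called lower by DESeq2 was Atm, the kinase that signals double-strand breaks, which had 14.0, 14.7 and 13.9 CPM in MPP against 27.4, 26.6 and 26.5 CPM in ST-HSC. Its edgeR estimate fell short of 2-fold (log2 fold change -0.92 ± 0.0641 SE, adjusted p = 6.6e-35) and was -0.38 once the trend with GC and length was removed. Brip1, the helicase bound to BRCA1, had 33.3, 29.7 and 33.5 CPM in MPP against 18, 19.8 and 19.1 CPM in ST-HSC, a 1.7-fold difference in which no library overlapped. Once the trend was removed, Brip1 was the 1 gene called higher (log2 fold change 1.15), against 10.3% of all genes. None of the 35 was then called lower, against 28.0% of all genes. With library size alone, where the median of all genes was -1.09, 15 of the 35 were called lower, against 51.7% of all genes.

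Of the mitosis list 16 of 20 were called higher and none lower, and of the replication list 9 of 20 higher and none lower. Ube2c, the ubiquitin-conjugating enzyme of mitotic exit, averaged 249 CPM in MPP and 51.4 CPM in ST-HSC, and Aurkb, a kinase of chromosome segregation, averaged 215 CPM in MPP and 52.2 CPM in ST-HSC. Of the 45 other pathway genes, 7 were called higher and 2 lower. H2afx, the histone variant phosphorylated at breaks, averaged 313 CPM in MPP and 52.7 CPM in ST-HSC. Markers of granulocyte-monocyte progenitors summed to 37700 to 38400 CPM in MPP and 305 to 315 CPM in ST-HSC, and plasma cell markers to 12800 to 13200 CPM in MPP and 258 to 262 CPM in ST-HSC.

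In CMP against MPP, 2 of the 35 genes rose, Bard1 and Chek1, against 16.0% of all genes called higher, and none fell by edgeR or by DESeq2, against 15.5% called lower. At an unadjusted p below 0.05, 8 were lower (36.0% of all genes). The 35 genes had a median log2 fold change of 0.28, against 0.01 over all genes. Bard1 had 15.2, 16.6 and 16.9 CPM in CMP against 4.79, 6.75 and 6.63 CPM in MPP (log2 fold change 1.43 ± 0.0917 SE, edgeR adjusted p = 1.9e-39). Chek1, the kinase that halts the cell cycle when forks stall, had 48.5, 49.6 and 50.6 CPM in CMP against 22.9, 21.2 and 23.0 CPM in MPP (log2 fold change 1.15 ± 0.053 SE, adjusted p = 1.9e-61). Neither gene's libraries overlapped between populations, and both calls held under every alternative run. With library size alone, which put the median of all genes at 0.68 on the log2 scale, 16 of the 35 were called higher, against 34.8% of all genes. Of the other lists, 3 pathway genes rose and 1 fell, and 1 replication gene and 2 mitosis genes fell. Polq, the polymerase of microhomology-mediated joining, averaged 19 CPM in CMP and 8.83 CPM in MPP, and Ccnb1, a mitotic cyclin, averaged 161 CPM in CMP and 361 CPM in MPP. Granulocyte-monocyte progenitor markers summed to 1390 to 1410 CPM in CMP and 37700 to 38400 CPM in MPP, and lymphoid progenitor markers to 3240 to 3270 CPM in CMP and 606 to 621 CPM in MPP.

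By 2-fold or more, CLP carried more transcript of 16 of the 35 genes than MPP, and less of none. Among all genes, 28.2% were called higher and 22.5% lower. At an adjusted p below 0.05 and any fold, 24 of the 35 were higher and 7 lower, against 39.6% and 37.5% of all genes. The median log2 fold change of the repair genes was 0.66, against 0.0 over all genes. At an unadjusted p below 0.05, 7 were lower (38.0% of all genes). DESeq2 called 16 higher and 0 lower, against 27.8% and 21.5% of all genes. By role the calls covered 4 of 5 BRCA genes, both Fancd2 and Fanci, 4 of 8 core complex genes, 3 of 5 checkpoint genes, and 1 each of the 3 nuclease genes, the 6 other recombination genes, and the 6 resection and helicase genes. CLP and MPP held basophil and eosinophil markers at about the same level, whereas stromal markers were at 1900 to 2000 CPM in CLP and 114 to 122 CPM in MPP. Granulocyte-monocyte progenitor markers summed to 2160 to 2240 CPM in CLP and 37700 to 38400 CPM in MPP, and plasma cell markers to 289 to 311 CPM in CLP and 12800 to 13200 CPM in MPP.

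Bard1 showed the widest difference, 57.4, 55.5 and 58.5 CPM in CLP against 4.79, 6.75 and 6.63 CPM in MPP (log2 fold change 3.24 ± 0.0769 SE, edgeR adjusted p = 9.9e-125). Slx4, the scaffold of crosslink nucleases, followed with 64.5, 65.5 and 68.0 CPM in CLP against 13.6, 12.8 and 11.5 CPM in MPP (log2 fold change 2.4 ± 0.0608 SE, adjusted p = 8.8e-118). Bard1 was thus 9.42-fold and Slx4 5.26-fold higher in CLP, with no overlap. Atm had 67.0, 64.6 and 70.9 CPM in CLP against 14.0, 14.7 and 13.9 CPM in MPP (log2 fold change 2.26 ± 0.058 SE, adjusted p = 1.4e-116). Atr, the kinase that answers single-stranded DNA, had 69.2, 66.3 and 69.7 CPM in CLP against 17.8, 18.6 and 18 CPM in MPP (log2 fold change 1.92 ± 0.0528 SE, adjusted p = 3.1e-109). ATRIP, the partner that brings ATR to DNA, showed no such rise at the transcript level, since Atrip averaged 25.9 ± 0.915 CPM in CLP and 29.8 ± 0.547 CPM in MPP (SD, n = 3 each).

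Longer transcripts were higher in CLP in general. Spearman's rank correlation between the log2 fold change and transcript length was 0.32 over 19756 genes and 0.61 over the 35, whose median length was 4480 bases against 2820 bases over all genes. Taking out the GC and length trend left 7 genes called higher, all among the 16 (Bard1, Slx4, Fanca, Rad51c, Chek1, Fancb and Fancf), and 1 called lower (Exo1, an exonuclease of resection, at -1.3). Among all genes 28.7% were then called higher and 18.5% lower, so the 7 of 35 were a smaller share than that of all genes. The 1 called lower was likewise a smaller share. The median log2 fold change of the repair genes was then 0.42, against 0.12 over all genes. Bard1 then stood at a log2 fold change of 2.31 and Slx4 at 1.36, whereas Atm (0.74), Atr (0.58), Brca1 (0.6) and Fancm (0.53) fell short of 2-fold. Of the 7, 6 were called under every alternative run, the exception being Fancb, which was below 2-fold without MPP library 3 (log2 fold change 0.949) or CLP library 2 (0.968) and when only these populations were fitted (0.899).

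**Figure D3:**
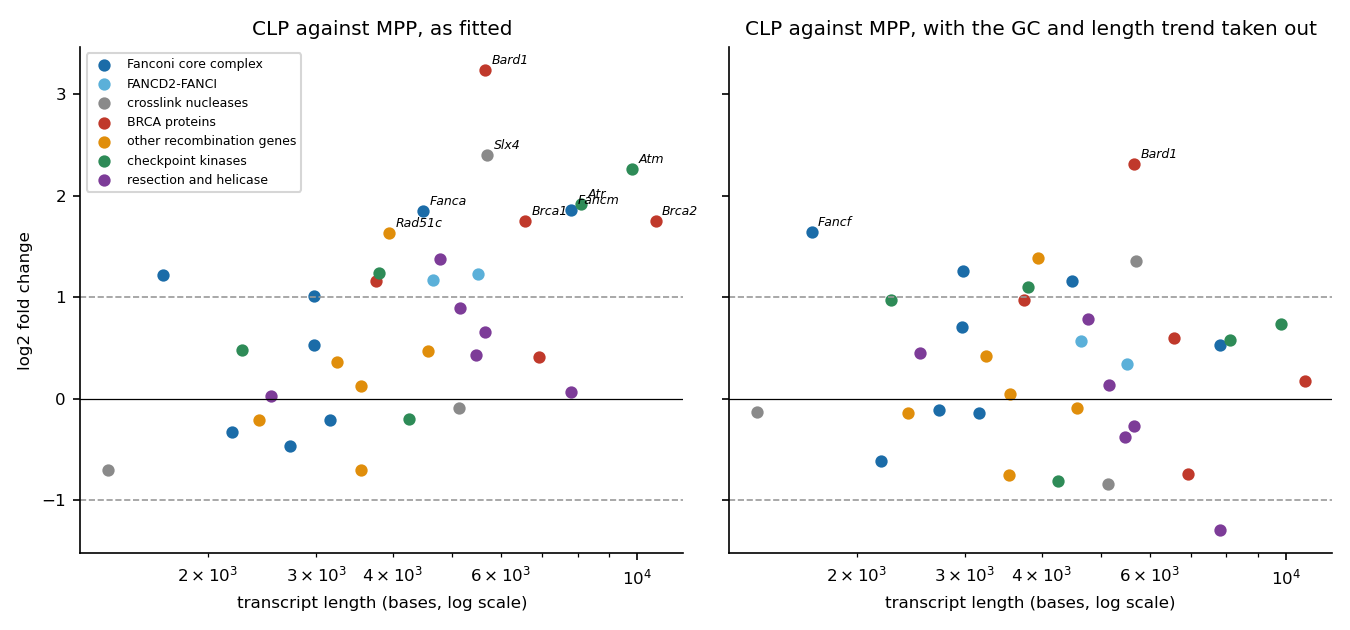
Log2 fold change of the 35 genes in CLP against MPP (y axis) by length of the longest annotated transcript (x axis, log scale), as fitted (left) and with the GC and length trend taken out (right), coloured by role. The dashed lines mark 2-fold, which Bard1 and Slx4 pass in both panels and Atm and Atr only on the left.

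Of the 45 other pathway genes 14 rose and 5 fell, led by Polq, at 96.4 CPM in CLP and 8.83 CPM in MPP, and Rev3l, the catalytic subunit of translesion polymerase zeta, at 87.4 CPM in CLP and 10.4 CPM in MPP. Mki67, the antigen of cycling cells, averaged 1810 CPM in CLP and 126 CPM in MPP. Of the 20 mitosis genes 6 rose and none fell, of the 20 replication genes 1 rose and 1 fell, and of the 10 end joining genes 4 rose and 1 fell.

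GMP against CMP gave 7 genes lower and 1 higher among the 35, against 28.0% of all genes called lower and 15.9% higher. Their median log2 fold change was -0.39, against -0.22 over all genes. The 7 were Atm, Atr, Brca1, Brca2, Bard1, Fancm and Chek1, and the 1 was Fancf. Atm had 8.67, 7.94 and 7.63 CPM in GMP against 20.2, 22.9 and 21.2 CPM in CMP (log2 fold change -1.41 ± 0.082 SE, edgeR adjusted p = 2.3e-45). Atr had 12.0, 10.9 and 11.7 CPM in GMP against 27.7, 28.0 and 28.3 CPM in CMP (log2 fold change -1.29 ± 0.0693 SE, adjusted p = 1.1e-50). Brca2, which encodes the partner of PALB2, had 17.4, 17.4 and 18 CPM in GMP against 38.5, 38.8 and 40.0 CPM in CMP. Brca1 had 20.1, 22.7 and 23.3 CPM in GMP against 47.9, 49.4 and 49.5 CPM in CMP.

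None of these libraries overlapped between GMP and CMP, yet no call was left once the GC and length trend was taken out, against 11.6% of all genes higher and 29.0% lower. Over the 35 genes Spearman's rank correlation of the change was -0.71 with transcript length and 0.68 with GC content, against -0.18 and 0.2 over 19756 genes. Without the trend, Atm stood at a log2 fold change of -0.32, Atr at -0.31 and Brca1 at -0.5. With library size alone, where the median of all genes was -1.37, 25 of the 35 were called lower and none higher, against 57.2% and 4.49% of all genes. Bard1 without GMP library 2 (log2 fold change -0.993) and Chek1 without CMP library 3 (-0.986) or GMP library 3 (-0.968) were just below 2-fold. Fancf had 2.89, 2.81 and 2.97 CPM in GMP against 1.26, 1.38 and 1.37 CPM in CMP and was at -0.077 with library size alone.

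Among replication genes, 8 of 20 were higher in GMP than in CMP and none lower. Of the 10 end joining genes 6 fell and none rose. Xrcc5, which encodes the Ku80 subunit that caps broken ends, averaged 6.02 CPM in GMP and 31.5 CPM in CMP, and Lig4, the end joining ligase, 0.702 CPM in GMP and 2.93 CPM in CMP. Of the 20 mitosis genes 7 rose and 3 fell, and of the 45 other pathway genes 7 rose and 6 fell. Rev3l averaged 3.6 CPM in GMP and 20.3 CPM in CMP.

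MEP against CMP raised 5 of the 35 genes, of which 4 belonged to the core complex (Fanca, Fancb, Fance and Fancf) and the other was Chek2, an effector kinase of ATM. Among all genes 18.9% were called higher and 34.2% lower. No repair gene was called lower by edgeR or by DESeq2, while 10 were lower at an unadjusted p below 0.05 (45.0% of all genes). In median the 35 changed by 0.32 on the log2 scale, against -0.25 over all genes. Fancf had 9.88, 7.66 and 8.06 CPM in MEP against 1.26, 1.38 and 1.37 CPM in CMP (log2 fold change 2.68 ± 0.154 SE, edgeR adjusted p = 1.8e-46). Fance, the subunit that brings FANCD2 to the core complex, had 61.0, 63.3 and 62.2 CPM in MEP against 20.5, 19.9 and 20.5 CPM in CMP (log2 fold change 1.61 ± 0.0492 SE, adjusted p = 1.1e-98). Neither overlapped between populations. Gas2, which covers 15% of the Fancf exon bases on the other strand, averaged 11.5 CPM in MEP and 5.72 CPM in CMP. Fancb had 11.4, 11.4 and 10.3 CPM in MEP against 4.11, 3.38 and 4.13 CPM in CMP, and Chek2 had 66.1, 62.1 and 58.9 CPM in MEP against 22.3, 24.4 and 24.3 CPM in CMP.

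The other core subunits were less moved, with Fancl at 35 ± 1.26 CPM in MEP and 18.8 ± 0.378 CPM in CMP (SD, n = 3 each), and Fancg at 20.3 CPM in MEP and 31.8 CPM in CMP. Without the GC and length trend the count of genes called higher was 12, with all 5 among them, against 22.6% of all genes. With library size alone, which put the median of all genes at -1.17 on the log2 scale, 1 gene (Fancf) was called higher and 11 lower, against 7.1% and 50.6% of all genes, so the counts in MEP moved with the scaling. Replication genes rose more widely than the repair genes here, with 13 of 20 higher and none lower. Their median log2 fold change was 1.41, against 0.32 for the repair genes. In the mitosis list 9 of 20 were higher and 1 lower. Of the 45 other pathway genes 15 rose and 1 fell. Rrm2, the small subunit of ribonucleotide reductase, averaged 713 CPM in MEP and 135 CPM in CMP, its large subunit Rrm1 averaged 2450 CPM in MEP and 501 CPM in CMP, and Usp1, which removes ubiquitin from FANCD2, averaged 260 CPM in MEP and 56.7 CPM in CMP.

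**Figure D4:**
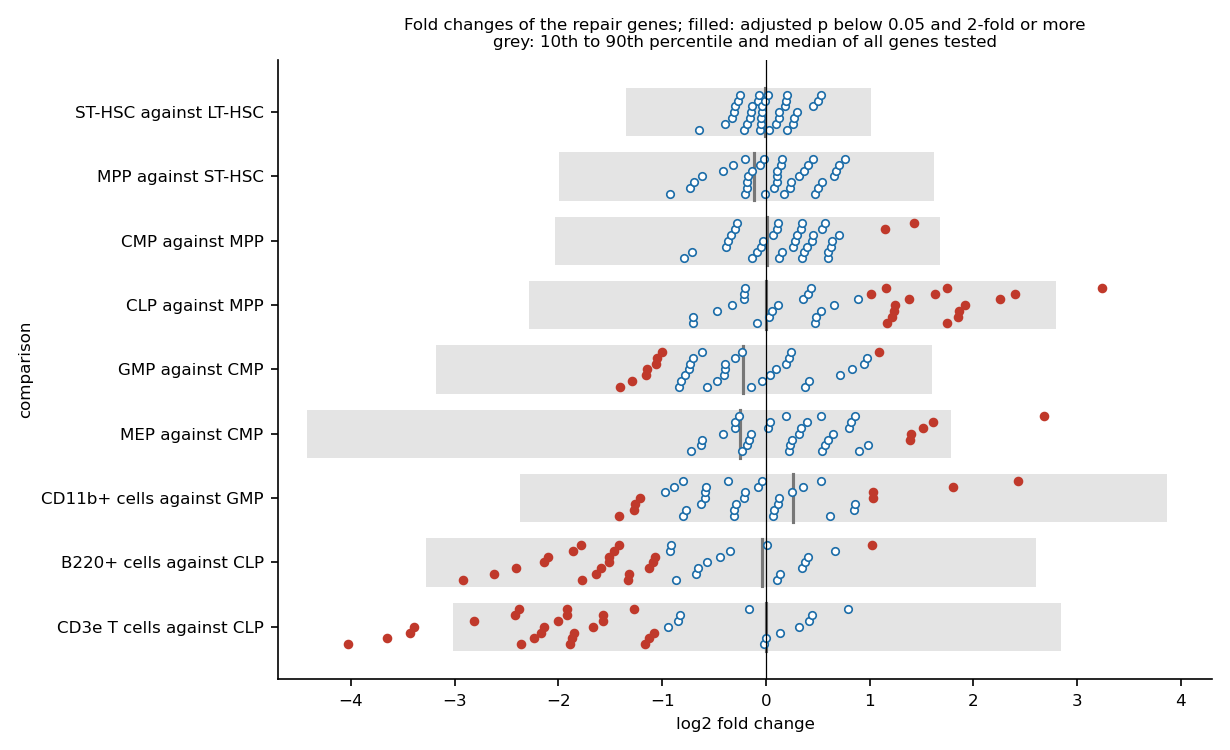
Log2 fold change of the 35 genes in 9 comparisons (rows, the population named first against the one named second). Filled points passed an adjusted p below 0.05 and 2-fold, and the grey bars span the 10th to 90th percentile of all genes tested, with their median as a line. The filled points lie on the right in CLP against MPP (16 genes) and on the left in B220+ cells and CD3e T cells against CLP (19 and 24 genes).

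In CD11b+ cells against GMP, 4 genes rose (Fanca, Fancb, Fancf and Rad52) and 4 fell (Fancc, Fance, Ercc1 and Atrip), against 31.1% of all genes called higher and 21.5% lower. The median log2 fold change was -0.21, against 0.26 over all genes. With library size alone it was 0.09, against 0.55 over all genes. Of the 8 core subunits 3 were called higher and 2 lower, close to the shares of all genes. Fanca, a core subunit that binds FANCG, had 111, 116 and 112 CPM in CD11b+ cells against 20.6, 22.1 and 19.7 CPM in GMP (log2 fold change 2.43 ± 0.0521 SE, edgeR adjusted p = 5.6e-136). Zfp276, which overlaps 10.5% of the Fanca exon bases on the other strand, averaged 81.3 CPM in CD11b+ cells and 12.5 CPM in GMP. Since strand use in counting was not stated, reads of both genes in the shared bases cannot be told apart. The same holds for Fancc, of whose exon bases 18.6% overlap other genes on the other strand, mainly 2010111I01Rik, which averaged 24.6 CPM in CD11b+ cells and 80.5 CPM in GMP.

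Fancb, which forms a module with FANCL, had 10.1, 9.99 and 10.9 CPM in CD11b+ cells against 3.68, 2.75 and 2.44 CPM in GMP (log2 fold change 1.8 ± 0.138 SE, adjusted p = 2.9e-30). Atrip had 16.9, 16.9 and 16.8 CPM in CD11b+ cells against 46.8, 43.6 and 45.0 CPM in GMP (log2 fold change -1.42 ± 0.0608 SE, adjusted p = 9.4e-68). The exonuclease gene Trex1 shares 16% of the Atrip exon bases on the same strand, so the counting could have split reads between them. Fance had 14.7, 14.8 and 15.4 CPM in CD11b+ cells against 34.6, 39.4 and 32.8 CPM in GMP. In each of these genes the libraries of CD11b+ cells lay apart from those of GMP.

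Fanca, Fancb and Atrip were called under every alternative run. Rad52 (log2 fold change 0.973) and Fancf (0.973) were below 2-fold when only these populations were fitted. Without the GC and length trend 3 genes were called higher and 10 lower, against 28.8% and 22.6% of all genes. Scaling by library size alone gave 6 higher and 1 lower, against 36.6% and 17.1%. Replication genes fell in 13 of 20 and rose in none, led by Mcm6, a subunit of the replicative helicase, at 361 CPM in CD11b+ cells and 2240 CPM in GMP. Of the mitosis genes 3 of 20 rose and none fell, of the end joining genes 4 of 10 rose and 1 fell (Lig4 averaged 7.64 CPM in CD11b+ cells and 0.702 CPM in GMP), and of the other pathway genes 4 of 45 rose and 9 fell. Neutrophil markers summed to 187000 to 190000 CPM in CD11b+ cells and to 231 to 283 CPM in GMP.

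By 2-fold or more, B220+ cells held less transcript of 19 of the 35 genes than CLP and more of 1, Ercc1. Among all genes 30.7% were called lower and 24.3% higher. At an adjusted p below 0.05 and any fold, 27 of the 35 were lower and 7 higher, against 42.5% and 39.5% of all genes. Besides Ercc1, the higher ones included Rad51d (log2 fold change 0.67), Fance (0.41) and Fancl (0.38). The median log2 fold change of the repair genes was -1.09, against -0.04 over all genes. By role 4 of 5 BRCA genes, both Fancd2 and Fanci, 4 of 5 checkpoint genes, 4 of 8 core complex genes, 3 of 6 resection and helicase genes, 1 of 3 nuclease genes and 1 of 6 other recombination genes fell. The CLP libraries of this comparison are those that stood against MPP, so a value high in CLP enters both.

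Brca2 had 13, 12.8 and 12.6 CPM in B220+ cells against 94.9, 97.8 and 97.4 CPM in CLP (log2 fold change -2.92 ± 0.0489 SE, edgeR adjusted p = 6e-164). Bard1 had 9.81, 8.95 and 9.27 CPM in B220+ cells against 57.4, 55.5 and 58.5 CPM in CLP (log2 fold change -2.62 ± 0.0623 SE, adjusted p = 8e-125). Brca1, the scaffold of the BRCA complexes, had 18.4, 20.3 and 18.3 CPM in B220+ cells against 101, 102 and 99.9 CPM in CLP. These 3 genes were 7.57-fold, 6.16-fold and 5.32-fold lower, and no library overlapped. Blm, the helicase that dissolves crossed strands, had 25.3, 25.3 and 26.3 CPM in B220+ cells against 110, 110 and 119 CPM in CLP (log2 fold change -2.14 ± 0.0427 SE, adjusted p = 5e-144).

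With the GC and length trend removed, 11 of the 35 were called lower, all among the 19, against 30.1% of all genes, so their share was close to that of all genes. None was then called higher, against 22.1% of all genes. The median log2 fold change of the repair genes was then -0.56, against -0.07 over all genes. Brca2 then stood at a log2 fold change of -1.54, Bard1 at -1.79, Brca1 at -1.39 and Blm at -1.59. The rank correlation of the change with transcript length was -0.27 over all genes and -0.56 over the 35. Under every alternative run 10 were called, namely Brca1, Brca2, Bard1, Palb2, Nbn, Chek1, Chek2, Blm, Fanca and Fancb. Fancf was below 2-fold without B220+ library 2 (log2 fold change -0.979) or library 3 (-0.955) and when only these populations were fitted (-0.976). Ercc1 had 25.8, 25 and 25.9 CPM in B220+ cells against 12.5, 12.3 and 13 CPM in CLP (log2 fold change 1.02). It was not called without CLP library 2, with library size alone or without the trend.

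Of the other lists, 15 pathway genes of 45 fell and 3 rose, 5 replication genes of 20 and 7 mitosis genes of 20 fell with none higher, and 2 end joining genes of 10 fell while 6 rose. Polq averaged 6.02 CPM in B220+ cells and 96.4 CPM in CLP, and Mdc1, the mediator that binds phosphorylated H2AX, averaged 20.5 CPM in B220+ cells and 160 CPM in CLP. Mki67 averaged 132 CPM in B220+ cells and 1810 CPM in CLP. B lineage markers summed to 7230 to 7390 CPM in B220+ cells and to 29.7 to 30.8 CPM in CLP, and neutrophil markers to 8640 to 8990 CPM in B220+ cells and 70.5 to 74.6 CPM in CLP.

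CD3e T cells showed the broadest difference from CLP, with 24 of the 35 genes lower and none higher by edgeR or by DESeq2. Of all genes 29.9% were called lower and 25.9% higher. At an unadjusted p below 0.05, 5 repair genes were higher (40.8% of all genes). The median log2 fold change was -1.67, against 0.0 over all genes. All 5 BRCA genes, both Fancd2 and Fanci, 4 of 5 checkpoint genes, 5 of 6 resection and helicase genes, 4 of 8 core complex genes, 3 of 6 other recombination genes and 1 of 3 nuclease genes fell.

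The largest fall was that of Bard1, with 3.29, 3.47 and 3.73 CPM in CD3e T cells against 57.4, 55.5 and 58.5 CPM in CLP (log2 fold change -4.03 ± 0.0772 SE, edgeR adjusted p = 1.2e-148). Brca2 had 7.65, 7.37 and 8.26 CPM in CD3e T cells against 94.9, 97.8 and 97.4 CPM in CLP (log2 fold change -3.65 ± 0.0552 SE, adjusted p = 6.8e-176). Brca1 had 10.5, 8.74 and 9.17 CPM in CD3e T cells against 101, 102 and 99.9 CPM in CLP (log2 fold change -3.43 ± 0.0539 SE, adjusted p = 2.2e-171). These 3 genes were 16.4-fold, 12.5-fold and 10.8-fold lower. Fancd2, the clamp subunit that the core complex ubiquitylates, had 6.41, 8.24 and 7.73 CPM in CD3e T cells against 79.2, 76.8 and 82.1 CPM in CLP (log2 fold change -3.39 ± 0.0574 SE, adjusted p = 6.4e-163).

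With the GC and length trend removed, 19 of the 35 genes were called lower, against 30.5% of all genes. Of the 24 genes, 16 were among them, and these 16 were called under every alternative run. The others were Fancg (-1.01), Nbn (-1.21) and Xrcc3 (-1.14), which were short of 2-fold before the trend was removed. The 16 included, with the trend removed, Bard1 at a log2 fold change of -3.21, Fancd2 at -2.61, Brca1 at -2.43, Fanca at -2.29 and Brca2 at -2.27. The genes that did not fall included the partners Ercc1 (21.9 CPM in CD3e T cells and 12.6 CPM in CLP) and Ercc4 (28.6 CPM in both). Proliferation genes fell alongside, 15 of 20 replication genes and 18 of 20 mitosis genes, with none higher, as did 21 of 45 other pathway genes, with 2 higher, and 2 of 10 end joining genes, with 3 higher. Polq averaged 4.56 CPM in CD3e T cells and 96.4 CPM in CLP, Mdc1 averaged 9.08 CPM in CD3e T cells and 160 CPM in CLP, and Mki67 averaged 76.1 CPM in CD3e T cells and 1810 CPM in CLP. Plasma cell markers summed to 16900 to 17000 CPM in CD3e T cells and to 289 to 311 CPM in CLP.

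The myeloid and lymphoid branches were then compared through the change in CD11b+ cells against GMP minus that in B220+ cells against CLP, which share no library. CLP stands in the lymphoid branch by its label alone. Its lymphoid progenitor markers (525 to 546 CPM) were below those of MPP and CMP, and its basophil and eosinophil markers summed to 8390 to 8800 CPM. The difference was called positive for 14 of the 35 genes and negative for 5, against 35.5% and 25.1% of all genes. Its median was 0.73 on the log2 scale, against 0.39 over all genes. Without the GC and length trend the median was 0.05 for the repair genes, against 0.29 over all genes. Fanca had the largest difference, 4.28 ± 0.0692 SE (edgeR adjusted p = 3.6e-168), being higher in CD11b+ cells than in GMP and lower in B220+ cells than in CLP. Fancb differed by 3.25 ± 0.167 SE (adjusted p = 2.8e-54), Brca2 by 2.72 ± 0.0929 SE and Brca1 by 2.54 ± 0.0821 SE.

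Of the BRCA genes 4 gave positive differences (Brca1, Brca2, Bard1 and Palb2). In B220+ cells against CLP all 4 were called lower, and in CD11b+ cells against GMP none was called, with log2 fold changes of 0.13 for Brca1, -0.2 for Brca2, -0.31 for Bard1 and 0.62 for Palb2 (edgeR adjusted p = 1.2e-08). Taking out the trend put Brca2 at -1.25 in CD11b+ cells against GMP and -1.54 in B220+ cells against CLP. Negative differences were those of Ercc1 (-2.23 ± 0.0887 SE), Fance (-1.68 ± 0.0864 SE), Atrip (-1.53 ± 0.0796 SE), Rad51d (-1.26 ± 0.0764 SE) and Fancl (-1.15 ± 0.123 SE). Positive calls of Chek2, Blm, Fanca, Slx4, Palb2, Fancb and Fancf and negative calls of Ercc1, Fance and Atrip held under every alternative run. Without the trend 7 were positive and 12 negative, against 33% and 24.1% of all genes, with Brca2 at 0.29 and Brca1 at 0.78, and with library size alone 24 were positive and 3 negative, against 40.7% and 19.8%.

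**Figure D5:**
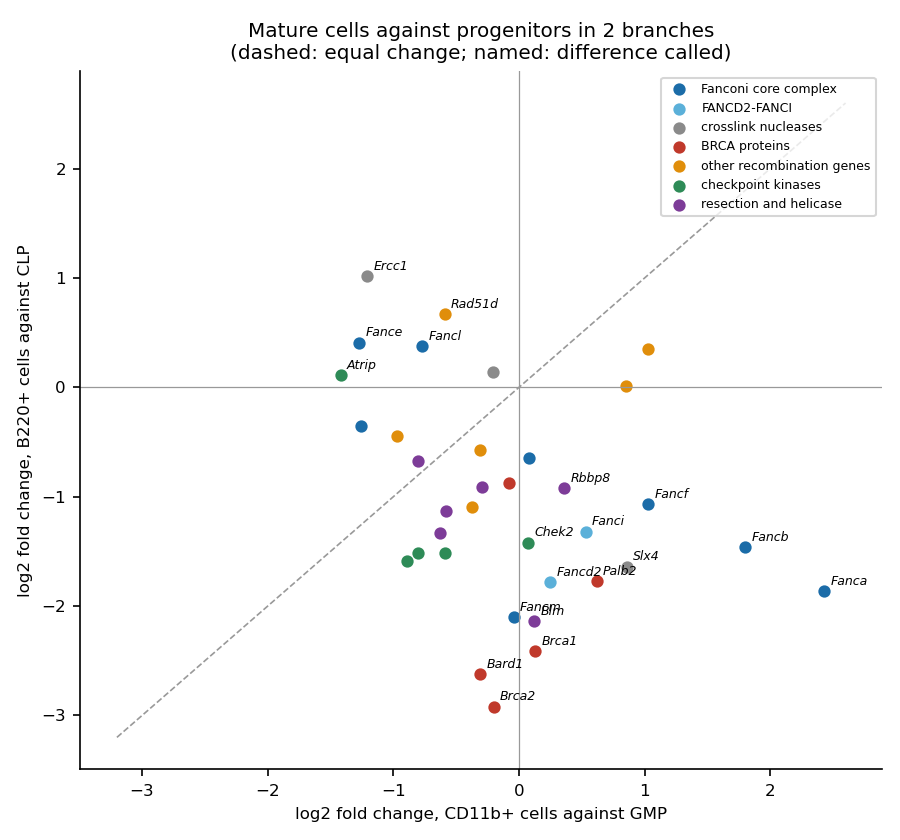
Log2 fold change of each of the 35 genes in CD11b+ cells against GMP (x axis) and in B220+ cells against CLP (y axis), coloured by role, with the line of equal change dashed and the 19 genes whose difference was called named. Fanca, Fancb and Fancf lie at the lower right and Ercc1 at the upper left, while the BRCA genes lie low near the middle.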

How the data were processed

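Polyadenylated RNA of 33 libraries was analysed from the table of raw read counts per gene that the authors deposited. Per the submitters' processing notes, the tools included HTSeq, HISAT2, cutadapt and DESeq2, with mm39 as the build. The sources used here give no versions, annotation, strand use or handling of multimapping reads. Library totals ran from 11997186 to 32022325 counts, and 0 columns were left out. Symbols, exon lengths, overlaps, GC content and transcript lengths came from GENCODE M21 (GRCm38), which matched 52073 of 56748 IDs, and Mre11a is an older symbol.

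Counts were filtered by population (filterByExpr, 20464 genes), scaled by TMM and fitted with 1 mean per population in edgeR 4.0.16 (R 4.3.3, robust quasi-likelihood, 22 residual degrees of freedom, common biological coefficient of variation 2.67%). P-values were adjusted by Benjamini-Hochberg over all genes tested. Calls needed an adjusted p below 0.05 and 2-fold. The procedure was tested on simulated data. Alternatives were DESeq2 1.42.0, a replicate block, leaving out each library, fits of only the populations compared, no filter, library size alone and relative log expression factors. Removal of each library's dependence on GC and transcript length (known for 96.5% of the genes) was added after the data were seen.

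The members and lists were chosen with earlier results of these data known. All 35 genes were accounted for by role. Values per library were given for the genes with the largest and smallest ranges and for at most 4 called genes a comparison by size of change, with at most 3 genes a comparison, by size of change, from the other lists. Where no gene was called the most changed were named, and partners of named genes (Atrip, Ercc1, Ercc4, Fancg, Fancl) were chosen after their values were seen.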

Additional observations from a re-analysis of the deposited data

Results flagged for a closer look

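Fanca, Fancb, Fancf and Ercc1 were set aside by rule. Their changes in the branches labelled myeloid and lymphoid were called in opposite directions, and the difference itself passed the test. How many of all genes met the same rule is not given here, so these genes are not read as unusual. For Fanca the difference between CD11b+ cells against GMP and B220+ cells against CLP was 4.28 on the log2 scale, for Fancb it was 3.25, for Fancf 2.1 and for Ercc1 -2.23. Without the GC and length trend the differences were 3.33 for Fanca, 3.22 for Fancb, 2.65 for Fancf and -1.34 for Ercc1. Not every separate call of Ercc1 and Fancf held. For Ercc1, in CD11b+ cells against GMP the log2 fold change was -0.69 without the trend and -0.91 with library size alone, and in B220+ cells against CLP at 0.65 and 0.89, each short of 2-fold. Ercc1 also fell short in B220+ cells against CLP without CLP library 2. When only the populations compared were fitted, Fancf was at 0.973 in CD11b+ cells against GMP and -0.976 in B220+ cells against CLP. The gene Gas2 covers 15% of the exon bases of Fancf on the other strand and Cd3eap 3.4% of those of Ercc1. Gas2 averaged 4.54 CPM in CD11b+ cells and 8.92 CPM in GMP, and Cd3eap averaged 12.9 CPM in CD11b+ cells and 26.0 CPM in GMP, and their part was not tested.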

How the results depend on the processing

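Of 102 calls of single genes, all 102 kept direction and call under relative log expression factors, no filter, DESeq2 and the replicate block, 97 with only the populations compared, 91 with library size alone and 59 with the GC and length trend taken out, where 41 fell short of the threshold and 2 reversed. With that trend out, the counts of genes called were 1 higher in MPP against ST-HSC, 7 higher and 1 lower in CLP against MPP, 0 higher and 0 lower in GMP against CMP, 12 higher in MEP against CMP, 10 lower in CD11b+ cells against GMP, 0 higher and 11 lower in B220+ cells against CLP, and 7 positive and 12 negative for the branch difference. Library size alone gave 15 lower in MPP against ST-HSC, 16 higher in CMP against MPP, 0 higher and 25 lower in GMP against CMP, 1 higher and 11 lower in MEP against CMP, 1 lower in CD11b+ cells against GMP, 0 higher in B220+ cells against CLP, and 24 positive and 3 negative for the branch difference. Relative log expression factors, no filter and DESeq2 each called 1 gene lower in MPP against ST-HSC, and fitting only the populations compared left 2 higher in CD11b+ cells against GMP. Reversed values were 0.000921 for Brca2 in GMP against CMP and -0.0684 for the branch difference of Rbbp8, both with the trend out, and -0.077 for Fancf in GMP against CMP with library size alone. The cause was not tested.

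Leaving out each library moved the count higher in B220+ cells against CLP between 0 and 1, and kept 718 of 726 single calls. Deviations of libraries with the same number had a median correlation of 0.0221 (165 pairs, lowest -0.162, highest 0.217, 13 over 0.1), against -0.0136 between different numbers (330 pairs, 8 over 0.1). Whether the numbers pair libraries cannot be told from these values, and the main fit held no replicate block. The replicate block gave 16 genes higher in CLP against MPP and moved no count of calls. Library size alone put the median log2 fold change of all genes at -1.37 in GMP against CMP, against -0.22 with TMM. Depth limited mainly Fancf, with a lowest count of 5.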
